A study of Zea mays with 4 samples.

Results

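O11 (Zm00001d003677) is the maize Opaque11 gene, followed here across single endosperm cells as 1 gene of the 45953 features in the count matrices. It was found by its identifier, and its transcripts were counted in every cell barcode of all 4 libraries. The study prepared protoplasts, cells freed from their walls by enzymes, from endosperm of wild type maize kernels of the inbred line B73 and sequenced their transcripts cell by cell with a droplet kit that reads the 3′ end of each molecule. There was 1 library at 6 days after pollination (DAP) and there were 3 libraries at 7 DAP, with no mutant, treatment or second line, so that every group shares the genotype. The protocol gives 80 to 100 kernels as the material, pooled, so a library is a pool of kernels and not 1 plant. Nothing in the labels says whether the 3 libraries of 7 DAP came from separate plants, and p-values then speak only for these libraries. The tests share information on spread over all genes, so a p-value does not measure the spread of O11 alone.

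O11 encodes a basic helix-loop-helix transcription factor of the endosperm, the tissue that stores starch and protein and feeds the embryo. Kernels that lack its function are small and opaque. Its counterpart in Arabidopsis, ZHOUPI, acts in endosperm around the embryo, where it is needed for that tissue to break down and for the embryo surface to form. In maize, earlier work placed it above other regulators of endosperm development, such as the NAKED ENDOSPERM gene NKD2, and above genes of starch and protein storage. The endosperm at this stage divides into the starchy endosperm (SE), which fills with reserves, the aleurone (AL) at the surface, the basal endosperm transfer layer (BETL), which takes up sugars from the mother plant, the embryo-surrounding region (ESR) and the endosperm adjacent to the scutellum (EAS).

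Levels are given as CPM, the unique molecular identifiers (UMIs, 1 per captured transcript molecule) of a gene per 1000000 UMIs of the same cells. A kept cell had 500 to 7500 genes, 1000 UMIs or more, and a ratio of log genes to log UMIs of 0.8 or more, which measures complexity. This kept 3141 cells with a median of 1814 UMIs at 6 DAP, and 4815, 4871 and 4385 cells with medians of 3979, 5599 and 5659 UMIs at 7 DAP. Pairs of libraries shared 4 to 8 barcodes. Markers of the endosperm domains were found in all libraries, with AL9 at 10347 CPM at 6 DAP and 43854 to 46020 CPM at 7 DAP, FL3 at 301 and 181 to 239.8 CPM, and BETL9 at 245 and 294 to 344 CPM. ESR markers were scarcer at 6 DAP, where ESR3 had 8 UMIs in all kept cells and ESR2 stood at 39.5 CPM against 517 to 529 CPM at 7 DAP. The EAS markers MS8 and SWEET15A stayed near 0, with 7 DAP ranges of 4.04 to 6.06 and 1.97 to 2.39 CPM. Of the 4 AL markers, Zm00001d024210 had no UMI in any kept cell.

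O11 was a sparse transcript. It had 420 UMIs in the kept cells of 6 DAP and 763, 981 and 784 UMIs in replicates 1, 2 and 3 of 7 DAP. At least 1 O11 UMI was found in 11.3% of cells at 6 DAP and in 12.4%, 15.2% and 14.3% of cells at 7 DAP, and no cell had more than 6. Most O11-positive cells held a single O11 UMI, which was so for 298 of 354 such cells at 6 DAP and for 468 of 596, 565 of 739 and 505 of 629 at 7 DAP. A cell without an O11 UMI is therefore no cell without O11 transcript, and levels are compared over sums of many cells.

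The first comparison followed O11 along FL3 (Zm00001d009292), the floury3 gene of a PLATZ-domain regulator of the starchy endosperm, used by the study to mark SE. In each library the cells with an FL3 UMI were divided into 4 bins of equal cell number by the FL3 share of their UMIs, and cells with no FL3 UMI formed a bin of their own. BETL9 was treated in the same way. O11 rose with FL3 in every library. In cells without FL3 it stood at 18.9, 17.4 and 16.0 CPM in replicates 1, 2 and 3 of 7 DAP. In the highest FL3 bin it stood at 113.9, 111 and 109 CPM. The groups did not overlap, and the bins between lay in order, with means of 26.6 ± 1.93, 65.0 ± 11.6 and 93.6 ± 10.3 CPM from the lowest FL3 bin upward (SD, n = 3). The highest bin exceeded cells without FL3 by a log2 fold change of 2.35 ± 0.11 (SE), with an adjusted p of 1.3e-106 by edgeR's quasi-likelihood test with Benjamini-Hochberg adjustment, and the change was seen in 3 of 3 libraries. In this contrast 44.5% of the 18556 genes tested passed the threshold of 0.05, and 20.4% were higher (37.9% higher with library totals in place of TMM, a scaling that assumes that most genes do not differ). A large share of the table thus moved along this axis, and O11 had a larger log2 fold change than 98.9% of the genes.

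At 6 DAP the same ranking gave 41.8 CPM in cells without FL3 (95% Poisson interval 36.5 to 47.8) and 129 CPM in the highest bin (96.0 to 170). The bins between had 87.3, 97.9 and 118.5 CPM, so O11 also rose along FL3 at this age, from a higher level in cells without FL3. The ratio between the ends was 3.09 at 6 DAP and 6.04 to 6.82 in the 7 DAP libraries. With 1 library at 6 DAP this difference in ratio was not tested.

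O11 ran the opposite way along AL9 (Zm00001d012572), which encodes a lipid-transfer-like protein and marks the aleurone. Here all kept cells were ranked by their AL9 share and divided into 5 bins. In the lowest bin O11 stood at 72.4, 64.9 and 53.9 CPM in replicates 1, 2 and 3 of 7 DAP. In the highest bin it stood at 5.31, 6.61 and 5.82 CPM. Its level dropped at each step, with means of 63.8 ± 9.29, 46.0 ± 5.07, 22.6 ± 2.41, 11.01 ± 1.34 and 5.91 ± 0.65 CPM (SD, n = 3). O11 fell by 2.96 ± 0.12 on the log2 scale between the ends, with an adjusted p of 3.8e-15 by edgeR's quasi-likelihood test, in 3 of 3 libraries. Here 58.5% of 16785 genes passed, and 29.9% were lower (58.5% lower with library totals). At 6 DAP O11 had 92.2 CPM (77.1 to 109.5) in the lowest bin, 96.2, 61.8 and 27.9 CPM in the next 3, and 12.6 CPM (7.37 to 20.3) in the highest.

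**Figure D1:**
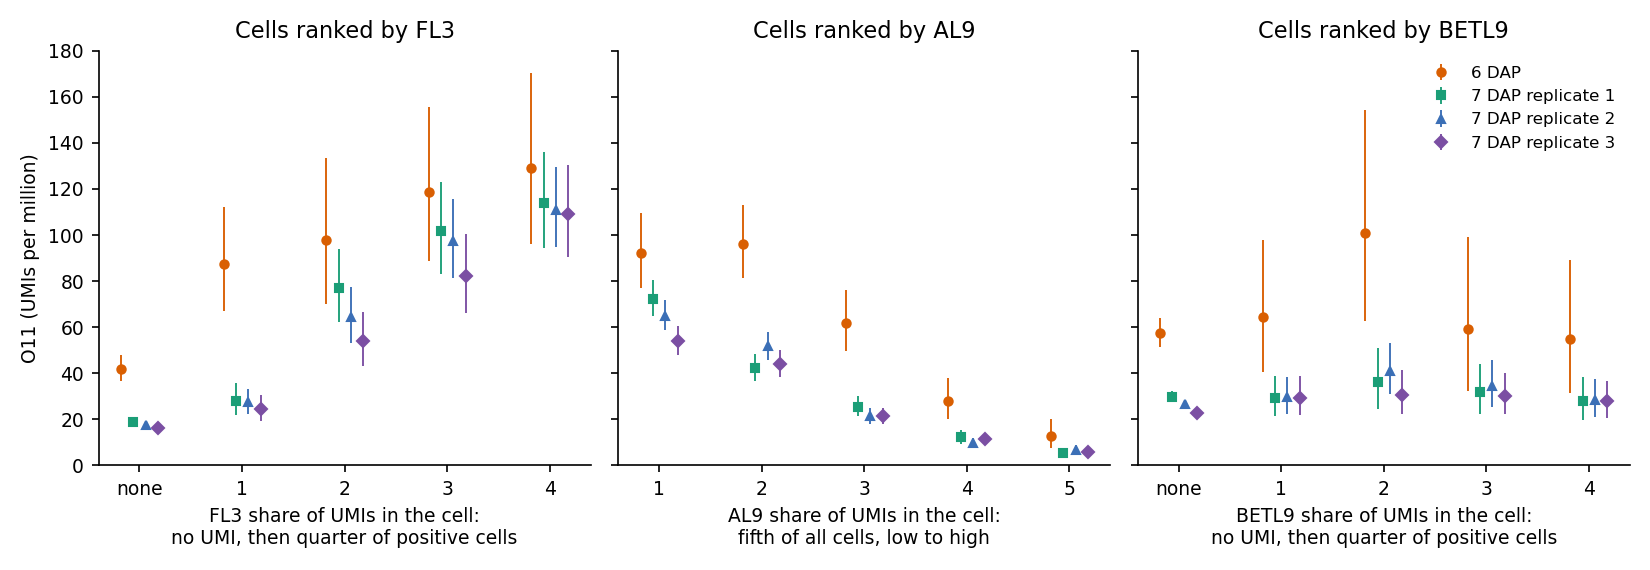
O11 level in CPM (y axis) in cells ranked by the share of UMIs of FL3, AL9 or BETL9 (x axis, 1 panel each), for the library of 6 DAP and the 3 libraries of 7 DAP. Points are sums over the cells of a bin and bars are 95% Poisson intervals, which cover counting error only. At 7 DAP O11 rose from 16.0 to 18.9 CPM without FL3 to 109 to 113.9 CPM in the highest bin, fell to 5.31 to 6.61 CPM in the highest AL9 bin, and had 22.9 to 40.9 CPM over all BETL9 bins.

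At equal depth the share of cells with an O11 UMI had the same order at the ends of the FL3 and AL9 rankings. A random draw of 1000 UMIs was taken from each kept cell. O11 was then found in 7.82% of the lowest AL9 bin and 0.809% of the highest, as means over the 7 DAP libraries, and in 2.12% of cells without FL3 and 12.6% of the highest FL3 bin. The highest AL9 bin had the lowest share of all bins, and every FL3 bin lay above it. Between the FL3 ends the order did not hold in each library. Replicate 1 of 7 DAP had 2.38% without FL3 and 2.34% in the lowest FL3 bin. The 6 DAP library had 14.4% in the bin below the highest and 10.3% in the highest. Cells of the highest AL9 bin had medians of 4916, 6513 and 6778 UMIs before thinning, and those of the lowest had 3469, 4587 and 4258. Those of the highest FL3 bin had medians of 2872, 3974 and 3391 UMIs, against 4098, 5815 and 6066 without FL3. The lowest FL3 bin held the deepest cells of this ranking, with medians of 6931, 10102 and 9506 UMIs. How much of the remaining 0.809% was RNA free in the droplets was not tested.

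Since O11 ran along both rankings, it was also followed along FL3 within cells below the median AL9 rank that had no BETL9 UMI. There O11 stood at 35.2, 35.2 and 28.8 CPM without FL3 and at 140.5, 123.9 and 121 CPM in the highest FL3 bin at 7 DAP. These groups did not overlap either, and the log2 fold change was 1.92 ± 0.13 (adjusted p of 4.2e-17, edgeR; 35.5% of 15294 genes passed and 16.3% were higher). The 6 DAP library had 74.2 and 135 CPM. The bins between were not in order, with 7 DAP means of 52.2, 105.9 and 98.6 CPM from the lowest FL3 bin upward. At 6 DAP they had 140.4, 104 and 141 CPM. O11 thus differed between the FL3 ends among cells that were low in the aleurone marker, without a rise at each step. The cells without FL3 were not cleared of other cell types. They held the ESR markers at 7336, 6616 and 6956 CPM at 7 DAP, against 426, 188 and 250 CPM in the highest FL3 bin. The depth of these cells differed by library, with medians of 2975.5, 3976 and 3318 UMIs in the highest FL3 bin against 2889, 3332 and 3282 UMIs without FL3.

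BETL9 (Zm00001d041822), the marker of the transfer layer, gave no such order. O11 stood at 29.7, 26.6 and 22.9 CPM in cells without BETL9 and at 27.9, 28.4 and 27.8 CPM in the highest BETL9 bin at 7 DAP. The 2 groups overlapped, and the 3 bins between had means of 29.3, 35.9 and 32.2 CPM. The call for this contrast depended on the scaling. With TMM the log2 fold change was 0.84 ± 0.15 (adjusted p of 3.7e-07, edgeR), against 44.7% of 18566 genes called and 21.5% called higher, and with library totals it was 0.10 ± 0.15 (adjusted p of 0.54). Genes called higher and lower numbered 3988 and 4305 with TMM and 1370 and 11410 with library totals, and the median log2 fold change over all genes went from -0.11 to -0.85. The same change of scaling moved that median to 0.31 for FL3, -0.47 for AL9, -0.60 for ESR-marker cells and 0.28 for the G2/M ranking described below, and in none of these did the O11 call end. Cells of the highest BETL9 bin had medians of 6266, 9819 and 12172 UMIs against 3806, 5335 and 5237 UMIs without BETL9. At 6 DAP O11 had 55.0 CPM (31.4 to 89.3) in that bin and 57.4 CPM without BETL9.

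The ESR holds genes such as ESR1, ESR2 and ESR3, which encode small secreted peptides of the CLE family. ESR-marker cells were those with at least 3 UMIs of the 6 ESR markers that made up at least 1% of their UMIs. There were 68, 49 and 41 such cells at 7 DAP, with 20, 27 and 17 O11 UMIs. O11 stood in them at 52.6, 67.1 and 53.5 CPM, above the 29.5, 27.3 and 23.9 CPM of all other kept cells of the same libraries. The groups did not overlap in CPM. The log2 fold change was 1.499 ± 0.25 (adjusted p of 4.0e-08, edgeR), where 17.7% of 18641 genes passed, with 6.65% higher and 11.1% lower (3.84% higher with library totals). Without replicate 3 the call of O11 ended, at an adjusted p of 0.0746 and a log2 fold change of 1.44 ± 0.25. In that setting 161 genes passed in place of 3307, so that calls were lost over the whole table while the O11 value moved little. In the thinned cells the groups overlapped in the share with an O11 UMI. It was 2.04% to 9.76% of ESR-marker cells and 3.11% to 3.64% of other kept cells at 7 DAP. In replicate 2 ESR-marker cells were lower, at 2.04% (0.0517 to 10.9) against 3.53%. With 1 positive ESR-marker cell in that replicate, thinned detection is too sparse to check the difference in CPM.

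The O11 UMIs of ESR-marker cells were not confined to cells that also held FL3. Of them, 12 of 20, 19 of 27 and 12 of 17 were in ESR-marker cells without an FL3 UMI. The kept ESR-marker cells still carried AL9 at 16586, 12308 and 7606 CPM, and whether AL9 RNA came from outside these cells was not tested. The filters also removed ESR-marker barcodes, in which O11 had 5, 9 and 6 UMIs, or 18.7, 24.4 and 14.5 CPM. Over all deposited barcodes in which the ESR markers took at least 5% of UMIs, O11 stood at 42.2, 43.8 and 29.97 CPM, against 30.3, 28.7 and 25.2 CPM over all barcodes of these libraries. With the share of 1% and all deposited barcodes, O11 stood at 38.6, 46.7 and 31.5 CPM in ESR-marker barcodes. This was nearer to the level over all barcodes than the 52.6, 67.1 and 53.5 CPM of kept ESR-marker cells. The log2 fold change with TMM was 1.42 (adjusted p of 3.5e-10, edgeR) and did not show this smaller excess in CPM. Library totals were not used in this setting. At 6 DAP only 4 kept cells were ESR-marker cells and they held 1 O11 UMI, which gives no level.

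Each kept cell was then placed in 1 of 6 sets by these markers jointly. At 7 DAP the cells with FL3 and no BETL9 held 44.4%, 44.4% and 42.7% of the O11 UMIs in replicates 1, 2 and 3, while they held 18.4%, 19.3% and 17.0% of all UMIs. Their O11 level was 71.9, 63.8 and 60.6 CPM. Cells with neither FL3 nor BETL9 and above the median AL9 rank had 8.27, 7.07 and 7.22 CPM, and they held 11.7%, 11.4% and 14.2% of the O11 UMIs from 42.1% to 47.4% of all UMIs. Between these ends lay the cells with neither marker and below the median AL9 rank, at 34.3, 33.4 and 27.4 CPM, and the cells with BETL9 only, at 27.5, 28.9 and 30.1 CPM. These 2 sets overlapped over libraries, as did cells with both FL3 and BETL9 (43.4, 46.5 and 27.0 CPM) with each of them. The ESR-marker set, at 52.6, 67.1 and 53.5 CPM, overlapped the cells with FL3 and no BETL9 and was above them in replicate 2. O11 was thus found in every set, and cells with a BETL9 UMI and no FL3 UMI still held 14.3% to 19.6% of the O11 UMIs.

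**Figure D2:**
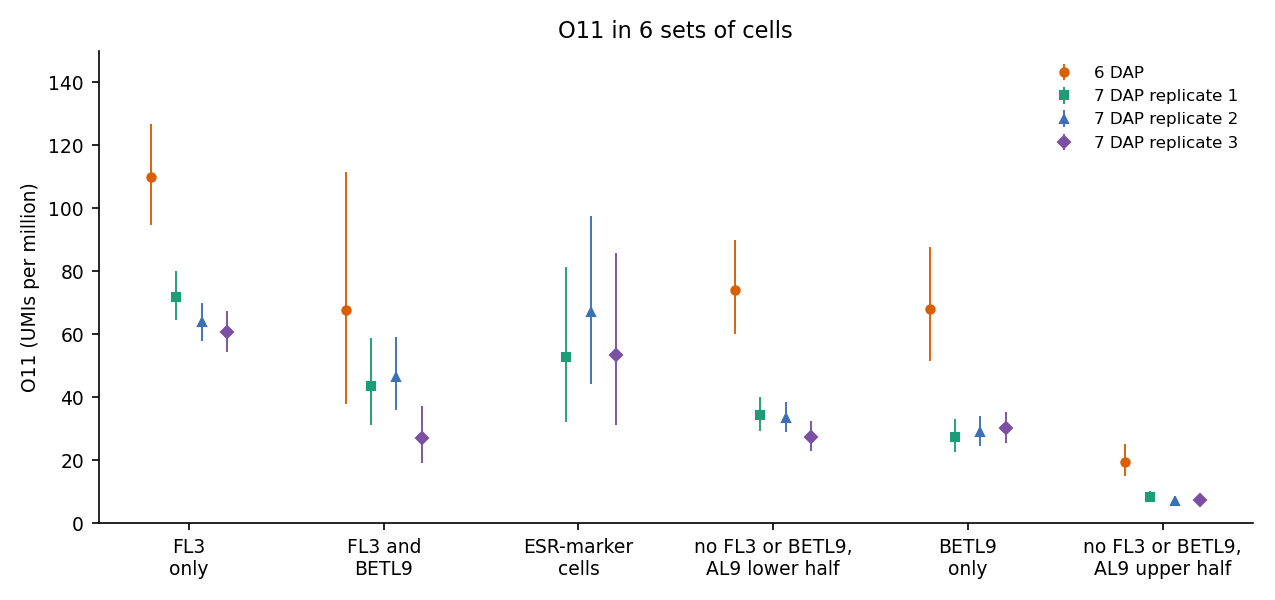
O11 level in CPM (y axis) in 6 sets of kept cells (x axis) in each library. Points are sums over the cells of a set, bars are 95% Poisson intervals, and the ESR-marker set of 6 DAP, with 1 O11 UMI in 4 cells, is not drawn. At 7 DAP the level ran from 60.6 to 71.9 CPM in cells with FL3 and no BETL9 to 7.07 to 8.27 CPM in cells with neither marker above the median AL9 rank.

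Cells with 3 or more O11 UMIs were few, 27, 52 and 24 at 7 DAP and 7 at 6 DAP. They are given as a description, since they were chosen by O11 itself. FL3 was detected in 24 of 27, 34 of 52, 17 of 24 and 6 of 7 of them, against 21.7% to 22.2% of 7 DAP cells without an O11 UMI. The median AL9 share of their UMIs was 0.144%, 0.184% and 0.270% at 7 DAP, while it was 2.35%, 2.18% and 1.99% in cells without O11. They were also deep cells, with medians of 7375, 11854 and 8902 UMIs.

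O11 was next set against the cell cycle, since cells of this age still divide. Cells were ranked by the summed UMI share of the study's list of 304 G2/M genes, which are used when a cell prepares for and enters mitosis, and divided into 5 bins. O11 stood at 22.7, 21.4 and 19.9 CPM in the lowest bin and at 53.2, 46.0 and 43.5 CPM in the highest at 7 DAP. The groups did not overlap, and the log2 fold change was 0.87 ± 0.09 (adjusted p of 1.4e-13, edgeR; 57.3% of 17151 genes passed, 28.5% higher, or 46.4% higher with library totals). The middle bins had means of 18.6, 21.3 and 30.3 CPM, so the rise lay in the upper 2 bins. At 6 DAP the bins had 45.9, 56.5, 65.3, 61.0 and 65.4 CPM, with intervals of 35.3 to 58.7 and 53.1 to 79.8 at the ends, and the trend was not separated from counting error at this depth.

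Within cells below the median AL9 rank and without BETL9, a comparison chosen after the data had been seen, O11 stood at 30.2, 22.4 and 16.2 CPM in the lowest G2/M bin and at 97.5, 100.8 and 99.8 CPM in the highest. From the lowest bin to the highest, each was above the one before in all 3 libraries. The log2 fold change was 1.99 ± 0.15 (adjusted p of 3.6e-13, edgeR; 54.5% of 13691 genes passed, with 26.3% higher and 28.2% lower). Cells of the lowest and highest bins had medians of 2956.5, 3907.5 and 3719 UMIs and of 3255, 3964 and 3687 UMIs. The 6 DAP library had 50.3 CPM (32.2 to 74.8) and 125 CPM (97.8 to 158) in the same bins, which did not overlap in their intervals. Markers of the cell types moved with both rankings. Within the subset 4 of 5 SE markers were higher in the highest G2/M bin, with a median log2 fold change of 2.45, while both EAS markers and 2 of 6 ESR markers were lower. There 2 of 4 BETL markers were also lower, and of 3 AL markers 1 was higher and 1 lower. Over all kept cells 5 of 5 SE markers were higher, with a median of 2.51, and 7 of 7 BETL markers were lower, as were both EAS markers and 3 of 6 ESR markers. Of 3 AL markers 2 were higher there and none was lower, with a median of 0.84. TAR1 was higher by 3.06 ± 0.07 in the subset (adjusted p of 3.6e-26, edgeR). The part of these markers' cells in the O11 result was not tested.

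The list of 137 S-phase genes, which serve DNA replication, was ranked over all kept cells only. Over its 5 bins O11 had means of 23.7, 26.2, 32.0, 35.3 and 19.98 CPM at 7 DAP, with the lowest mean in the highest bin.

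To see which genes were found in the same cells as O11, detection was compared in cells thinned to 1000 UMIs, where 177, 171 and 139 cells of 7 DAP and 173 cells of 6 DAP had an O11 UMI. The phi coefficient, a correlation of presence and absence over cells, was computed for 9628 genes in each library, and genes were ordered by its lowest value over the 3 libraries of 7 DAP. FL3 came first, with phi of 0.136, 0.131 and 0.123. It was found in 70, 64 and 50 O11-positive cells, where its frequency over all cells would give 26.2, 23.6 and 18.2. TAR1, a tryptophan aminotransferase of auxin synthesis that the study uses as an SE marker, came next with phi of 0.101, 0.119 and 0.116. It was found in 95, 96 and 78 O11-positive cells, against 53.2, 48.0 and 38.3.

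The other genes of the first 10 were Zm00001d017286, Zm00001d009415, Zm00001d031344, Zm00001d038682, Zm00001d019265, Zm00001d008898, Zm00001d010434 and Zm00001d013159. The feature table names Zm00001d019265 cytokinin N-glucosyl transferase1, an enzyme that conjugates a growth hormone, and Zm00001d013159 alpha tubulin3, a part of microtubules. The former was found in 59, 52 and 32 O11-positive cells, where 20.95, 19.3 and 15.2 would be given by its frequency. At the other end lay Zm00001d007967, Zm00001d017852, PDK2, Zm00001d033909 and Zm00001d007800. PDK2, a pyruvate, orthophosphate dikinase, was found in 32, 33 and 29 O11-positive cells, where 73.6, 69.2 and 57.2 would be given by its frequency. All 15 genes had phi of the same sign at 6 DAP, where that of Zm00001d008898 was near 0, at 0.0124. With another seed of the thinning, 5 of the first 10 genes stayed among the first 10, FL3 still first. Zm00001d031344 and Zm00001d013159 then fell to ranks 141 and 238. The phi of FL3 was 0.085 to 0.094 over the 7 DAP libraries with that seed, below its values above. All these phi values are weak in size and are a description of shared detection over cells of the same libraries. The part of the sparse counts in their size was not tested.

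**Figure D3:**
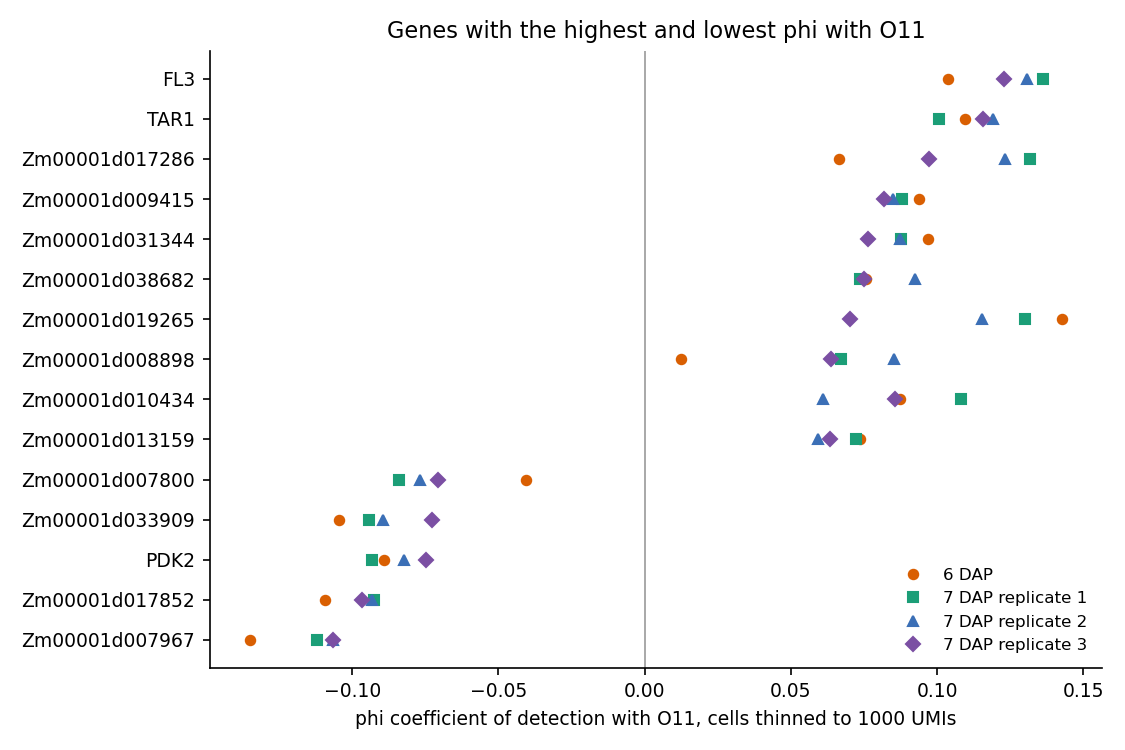
Phi coefficient of detection with O11 (x axis) for the 10 genes with the highest and the 5 genes with the lowest phi over the 7 DAP libraries (y axis), in cells thinned to 1000 UMIs. Each point is 1 library. FL3 had phi of 0.123 to 0.136 at 7 DAP and 0.104 at 6 DAP, and Zm00001d007967 had -0.112 to -0.106 at 7 DAP and -0.135 at 6 DAP. With another seed of the thinning, which is not drawn, FL3 had 0.085 to 0.094 at 7 DAP.

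Sums over thinned cells with and without an O11 UMI were then compared across all genes at 7 DAP, with O11 itself left out. Of 14152 genes tested, 233 were higher and 693 lower in O11-positive cells (6.54% called, 1.65% higher and 4.90% lower; edgeR). Library totals were not used as an alternative here, and TMM factors ran from 0.924 to 1.09. How far the split into higher and lower depends on this scaling was not tested. DESeq2 called 289, and 289 were called by edgeR without replicate 3 and 419 without replicate 2. O11-positive cells had been shallower before thinning, with medians of 3288, 4038 and 3980 UMIs against 3998, 5648 and 5695 UMIs. The part of this gap in depth in the calls was not tested.

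The fixed marker lists divided in this comparison. All 3 AL markers tested were lower, with AL9 at -1.86 ± 0.05, VPP7, a vacuolar proton pump, at -1.17 ± 0.20 and SBT1 at -2.75 ± 0.19 on the log2 scale (adjusted p of 8.2e-283, 3.3e-07 and 1.8e-45, edgeR). Of 5 SE markers tested 4 were higher, FL3 (1.76 ± 0.09), TAR1 (1.23 ± 0.09), PDK1 (0.75 ± 0.25) and the gamma-zein gene ZP27 (1.92 ± 0.65), and DE18, an enzyme of auxin synthesis, had 0.83 ± 0.29 (adjusted p of 0.056). ZP27 rested on 2, 1 and 8 UMIs in the O11-positive cells and PDK1 on 9, 23 and 12, and each was higher in 2 of 3 libraries. The call of ZP27 ended without any 1 of the replicates, and that of PDK1 without replicate 2 or 3. None of 7 BETL markers passed, with a median log2 fold change of -0.17 against -0.06 over all genes. Without replicate 2 BETL9 was called lower, at -1.17 (adjusted p of 0.0011) where it was -0.37 with all libraries (0.66), and without the filter on low counts BETL3 and GPM832 were called lower, at -0.31 each (0.017 and 0.047). Of 6 ESR markers, ESR6 (1.00 ± 0.20) and Zm00001d038758 (1.12 ± 0.15) were higher, and ESR1, ESR2, ESR3 and MEG14 lay between -0.28 and 0.21 with adjusted p of 0.77 to 0.92. The values of these 4 turned with the setting. Without replicate 1, ESR2 and MEG14 were called lower, at -1.28 and -1.17 (adjusted p of 2.6e-09 and 1.3e-10), with another seed they were 0.58 and 0.70 and not called, and at 2000 UMIs ESR3 was called higher, at 1.31 (adjusted p of 5.2e-05). ESR1 was called lower within cells low in AL9 and without BETL9, at -0.77 (adjusted p of 3.4e-04). No direction is given for these genes. ESR6 had 175, 140.5 and 93.6 CPM in O11-positive cells against 70.3, 56.6 and 54.6 CPM in the rest. Both calls ended with another seed, at adjusted p of 0.80 for ESR6 and 0.71 for Zm00001d038758, and that of ESR6 also without replicate 1 (0.051). The EAS marker MS8 had 4, 0 and 0 UMIs in O11-positive cells and did not pass.

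The ubiquitin genes UBI1 and UBI2, listed as controls, had log2 fold changes of -0.23 ± 0.10 (adjusted p of 0.19) and -0.28 ± 0.08 (adjusted p of 0.0080, edgeR). UBI2 stood at 1250, 1165 and 1073 CPM in O11-positive cells and at 1258, 1233 and 1221 CPM in the rest. These CPM are without TMM, which the fold changes include. The call of UBI2 ended with DESeq2 (adjusted p of 0.35), with another seed (0.18), without replicate 2 (0.11) and without replicate 3 (0.23).

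The regulators of endosperm development were listed apart, and 12 of 14 could be tested. FL3 is among them, and NAC130, a NAC factor that acts on storage protein and starch genes, was the other that was higher. It had 317, 205 and 187 CPM in O11-positive cells against 115, 112 and 106 CPM in the rest, a log2 fold change of 0.90 ± 0.16 (adjusted p of 1.5e-06, edgeR). The call of NAC130 ended without replicate 1, at a log2 fold change of 0.59 (adjusted p of 0.11). NKD1 and NKD2, which act in aleurone fate and grain filling, had log2 fold changes of 0.72 ± 0.29 and 1.01 ± 0.47 and did not pass (adjusted p of 0.12 and 0.24). NKD2 rested on 6, 4 and 5 UMIs in O11-positive cells. With another seed these values were 0.01 and -0.10, so that no direction is given for either gene. PBF1 and OHP1, factors that bind zein promoters, had 6 and 5 UMIs there and did not pass, and O2 could not be tested, with 0.0566 CPM at most in the kept cells of any 7 DAP library.

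The other 4 regulators that passed were lower. OCL1, a homeodomain factor of the outer cell layer, had 28.3, 23.4 and 50.4 CPM in O11-positive cells against 93.6, 84.7 and 86.2 CPM, a log2 fold change of -1.62 ± 0.30 (adjusted p of 4.4e-06, edgeR). WRKY8 was lower by -0.91 ± 0.26 (adjusted p of 0.0095), a call that ended without replicate 2 and without replicate 3. The homeobox gene HB91 had 2 UMIs in O11-positive cells and 398 in the rest, so that its level was 7.13-fold lower with a counting interval of 1.97 to 58.8. VP1, the B3 factor Viviparous1 of seed maturation and aleurone pigment, had no UMI in the O11-positive cells of any 7 DAP library and 119, 119 and 103 UMIs in the rest. Against a floor of 3 UMIs over the group it was at least 4.07-fold lower in this draw. Under the alternatives the log2 fold change of VP1 ran from -8.96 to -1.23, so this bound did not hold in all of them. The adjusted p of HB91 and VP1 were 7.9e-04 and 3.5e-05 (edgeR), and both calls ended without replicate 3, at 0.094 and 0.055. With another seed the adjusted p of VP1 was 0.14.

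Genes of starch and storage protein were divided as well, with 4 higher and 3 lower of 9 tested. AE1, a starch branching enzyme, had 62.2, 135 and 101 CPM in O11-positive cells against 34.1, 32.6 and 36.3 CPM, a log2 fold change of 1.33 ± 0.25 (adjusted p of 8.9e-06, edgeR). AGP2, a subunit of ADP-glucose pyrophosphorylase, was higher by 1.73 ± 0.42 (adjusted p of 0.0015), and ZP27 and PDK1 were the others. BT1, the ADP-glucose transporter of the plastid, had 2.11 ± 0.72 on 3, 1 and 2 UMIs and did not pass (adjusted p of 0.069). The calls of AE1 and AGP2 ended without replicate 2 and without replicate 3, and that of AGP2 ended with another seed (adjusted p of 0.37). The sucrose synthases SUS1 and SUS2, which cleave sucrose, were lower by -2.42 ± 0.28 and -1.66 ± 0.21, and PDK2 by -2.07 ± 0.10 (adjusted p of 1.5e-15, 1.8e-13 and 1.8e-92). PDK2 had 334, 363 and 418 CPM in O11-positive cells against 1377, 1333 and 1337 CPM. The calls of FL3, TAR1, AL9, SBT1, OCL1, PDK2, SUS1 and SUS2 held under each alternative run for this comparison.

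**Figure D4:**
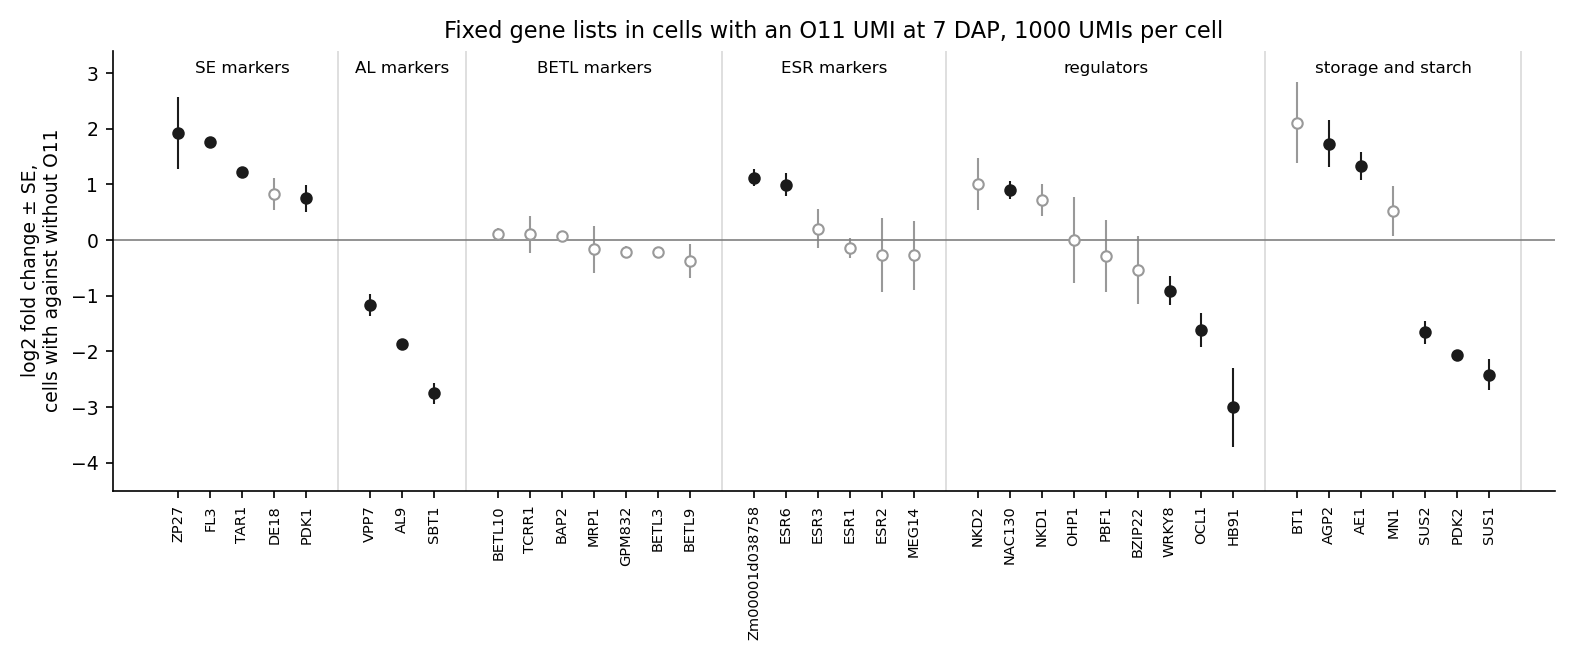
Log2 fold change with SE (y axis) between thinned cells with and without an O11 UMI at 7 DAP for the genes of the fixed lists (x axis), with filled points for an adjusted p under 0.05 by edgeR. VP1, at 0 UMIs in O11-positive cells, is not drawn and a gene on more than 1 list is drawn once. The 3 AL markers lay at -1.17 to -2.75, and the 4 SE markers called lay at 0.75 to 1.92.

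Within cells below the median AL9 rank and without BETL9, FL3 was still higher with O11, by 1.17 on the log2 scale, and TAR1 by 0.98 (adjusted p of 4.7e-32 and 5.6e-23, edgeR). PDK2 was lower there by -1.60 and SUS1 by -2.38 (adjusted p of 8.5e-20 and 1.4e-05). In this subset 438 genes passed.

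Targets of O11 were taken from the list that the study used to evaluate its network, which it drew from earlier RNA-seq and chromatin immunoprecipitation data, so that expression may have had a part in the choice of its genes. Of these, 248 were in the feature table. Of 190 that could be tested between O11-positive and other cells, 10 were higher, 19 were lower and 161 did not pass. That is 15.3%, against 6.54% of all genes, and the median log2 fold change was 0.05 against -0.06 over all genes. By sign alone, 49 targets were higher and 43 were lower in 3 of 3 libraries. With DESeq2 2 were higher and 9 lower, and without replicate 3 also 2 and 9. Targets thus moved in both directions in O11-positive cells. Targets were also called more often than all genes along AL9 (81.4% against 58.5%), BETL9 (61.8% against 44.7%) and G2/M (75.6% against 57.3%). In ESR-marker cells the shares were 37.5% and 17.7%. The excess was thus not particular to the comparison by O11, and the expression level of the targets was not matched in any of these.

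Among targets with the same sign in 3 of 3 libraries, the 5 with the largest change were Zm00001d020867 (2.84 ± 0.65), Zm00001d033580 (2.31 ± 0.60), Zm00001d028693 (-1.93 ± 0.18), Zm00001d037307 (1.59 ± 0.47) and Zm00001d019265 (1.45 ± 0.13). The feature table names Zm00001d033580 indol-3-ylacetyl glucosyl transferase1, an enzyme that conjugates auxin, and Zm00001d028693 safener induced1. Zm00001d019265, the cytokinin glucosyl transferase named above, had 481, 498 and 375 CPM in O11-positive cells against 154, 139.6 and 141 CPM (adjusted p of 1.6e-26, edgeR). Zm00001d028693 had 50.9, 105 and 108 CPM against 279, 292 and 296 CPM (adjusted p of 3.9e-23). These 2 calls held under each alternative. Zm00001d020867 rested on 2, 1 and 5 UMIs in O11-positive cells, Zm00001d033580 on 3, 6 and 5, and Zm00001d037307 on 9, 6 and 3. Their calls ended without replicate 3 (adjusted p of 0.42, 0.26 and 0.15), that of Zm00001d033580 also without replicate 2 (0.24), and that of Zm00001d037307 without any 1 of the replicates.

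Along FL3 within the cells low in AL9 and without BETL9, 198 targets were tested, of which 91 were higher and 41 lower in the highest FL3 bin. This is 66.7%, against 35.5% of all genes, with a median of 0.36 against 0.00 over all genes. These cells were ranked by FL3 and not by O11, and the expression level of the targets was not matched to that of all genes.

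The last comparison was between ages. O11 stood at 59.0 CPM at 6 DAP (53.5 to 64.9) and at 29.8, 27.7 and 24.2 CPM in replicates 1, 2 and 3 of 7 DAP, which average 27.2 ± 2.86 (SD, n = 3). The level at 6 DAP lay above all 7 DAP libraries, with a log2 ratio of 1.11, and so it did for 56.5% of the 9818 genes that averaged 10 CPM or more. The ratio of O11 was larger than that of 99.0% of these genes. At equal depth of 1000 UMIs, O11 was found in 5.51% of cells at 6 DAP (Clopper-Pearson 95% interval 4.74 to 6.36) and in 3.68%, 3.51% and 3.17% at 7 DAP. With 1 library at 6 DAP there is no test and no replicate check.

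This difference did not hold among shallow cells. At 7 DAP the O11 level fell with the depth of the cell, from means of 55.7 and 43.97 CPM in the lowest 2 of 5 bins by UMIs to 33.9, 24.98 and 19.9 CPM. At 6 DAP it had 74.1, 44.9, 55.96, 49.97 and 65.8 CPM over the bins. In kept cells of 1000 to 3000 UMIs, a depth that all libraries share, O11 stood at 55.3 CPM at 6 DAP (48.5 to 62.8) and at 45.5, 59.1 and 55.4 CPM at 7 DAP. The 6 DAP level then lay within the 7 DAP range, and 71.1% of genes had a smaller ratio than O11, with a median log2 ratio over genes of -0.20 where it was 0.14 over all kept cells.

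The cells of 1000 to 3000 UMIs differed in their make-up between ages. Cells with neither FL3 nor BETL9 above the median AL9 rank made up 46.1% of them at 6 DAP and 29.5%, 24.0% and 24.7% at 7 DAP. Among these cells O11 stood at 18.8 CPM at 6 DAP (13.3 to 25.8) and 16.2, 8.21 and 10.97 CPM at 7 DAP. Among those with FL3 and no BETL9 it stood at 114 CPM (91.3 to 141) and 90.3, 111 and 110.6 CPM, so that the interval of 6 DAP took in all 3 libraries but replicate 1. Only in cells with neither marker below the median AL9 rank did the 6 DAP level of 77.7 CPM (61.1 to 97.4) keep its interval above 43.9, 56.4 and 47.9 CPM. Over all kept cells, by contrast, the 6 DAP level was above all 7 DAP libraries with its interval in the cells with FL3 and no BETL9, at 110 CPM (94.7 to 127), and in 3 other sets. Age, depth and library cannot be told apart here, since the only library of 6 DAP is also the shallowest.

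**Figure D5:**
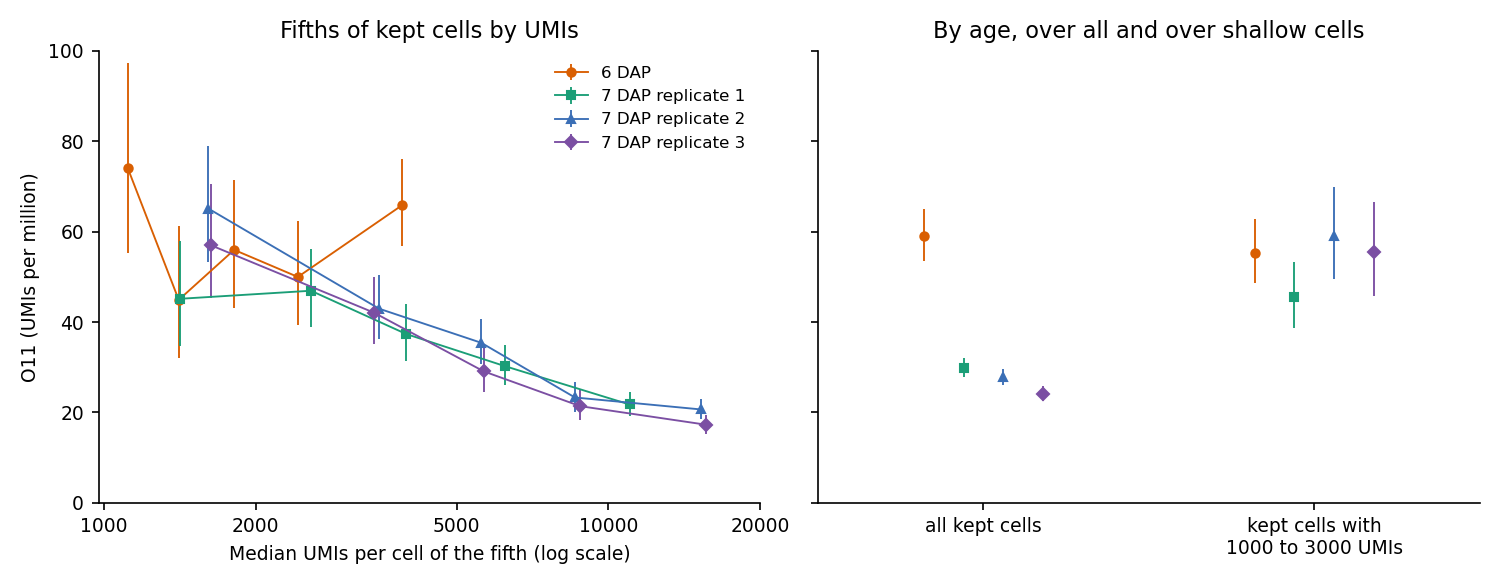
O11 level in CPM (y axis) in 5 bins of kept cells by UMIs against the median UMIs of the bin (left, log x axis) and over all kept cells and those of 1000 to 3000 UMIs (right), for each library. Bars are 95% Poisson intervals. Over all kept cells 6 DAP had 59.0 CPM and 7 DAP 24.2 to 29.8 CPM, and among cells of 1000 to 3000 UMIs they had 55.3 and 45.5 to 59.1 CPM.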

How the data were processed

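The values deposited by the authors were UMI counts, whole numbers for each gene in each barcode and not normalised. The submitters' processing notes name Cell Ranger and Seurat, with no version, and the feature identifiers are those of B73 annotation. Groups and replicate numbers came from the sample titles. O11, the lists and the sets of cells were chosen with earlier results of these data known. Cells were kept by genes, UMIs and complexity as the study did, with complexity read as the ratio of logs. The study later removed clusters that it assigned to embryo, nucellus and abnormal cell states. That step was not repeated, so such cells may be among those kept. Doublets were not called, and leaving out the 5% of cells with most UMIs was an alternative. UMIs were summed over the cells of each library and bin and tested at 7 DAP with edgeR 4.0.16 (TMM, a filter on low counts, quasi-likelihood, two-sided, the library as a block because both sums of a library come from 1 pool of protoplasts) in R 4.3.3. DESeq2 1.42.0 was an alternative. Thinning used seed 11, or 12 as an alternative. Named genes were the fixed lists, the 10 genes with the highest lowest phi and the 5 with the lowest highest phi among those in at least 1% of thinned cells of each 7 DAP library, and the 5 O11 targets with the largest change. Intervals are 95% and, like the floor of 3 counts, cover counting error only. On simulated counts the FL3 contrast recovered 57% of 2-fold and 85% of 4-fold changes over 18556 genes, and the comparison of O11-positive cells 22% and 57% over 14152 genes. No sequence or coordinate of O11 is given, as the reference table is of another assembly. The assignment of reads between near-identical copies was not examined.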

Additional observations from a re-analysis of the deposited data

Results flagged for a closer look

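O11 was also counted in the barcodes that the filters removed, which enter the report's comparisons only among ESR-marker barcodes and where all deposited barcodes are used, and it was found there above the limit that a count of 0 allows in every library. At 6 DAP the 1486 removed barcodes held O11 at 81.4 CPM (65.6 to 99.8), against 59.0 CPM in kept cells. At 7 DAP they held it at 40.6 CPM (29.9 to 53.8), 54.6 CPM (42.9 to 68.4) and 50.2 CPM (38.8 to 63.8) in replicates 1, 2 and 3, against 29.8, 27.7 and 24.2 CPM. The interval lay above the kept level in all libraries but replicate 1 of 7 DAP. Removed barcodes had medians of 773 UMIs at 6 DAP and of 706, 693 and 671 UMIs at 7 DAP, and held 18.0%, 5.92%, 7.10% and 7.76% of the O11 UMIs of their libraries.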

How the results depend on the processing

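The O11 calls along FL3, AL9 and G2/M, and along FL3 and G2/M within cells low in AL9, held under each alternative run, with log2 fold changes of 2.24 to 2.68, -3.40 to -1.92, 0.64 to 1.15, 1.67 to 2.10 and 1.80 to 2.23. With library totals the BETL9 value was 0.10. Leaving out 1 library gave 1.33 to 1.58 in ESR-marker cells. Without the replicate block the values were 2.35 for FL3, -2.97 for AL9, 0.84 for BETL9, 1.51 for ESR-marker cells, 0.87 for G2/M and 1.92 and 1.98 within cells low in AL9, and 943 genes in place of 926 differed with O11. It changed no call of O11. The block pairs the 2 sums of each 7 DAP library. Between ages no pairing or test was possible, since 6 DAP has 1 library.

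Genes that differed with O11 numbered 289 with DESeq2, 1927 at 2000 UMIs, 438 in cells low in AL9 and 289 to 657 with 1 library left out. The 10 genes most like O11 shared 5 members with another seed and 4 with the odds ratio. At 2000 UMIs O11 was found in 5.84% of cells at 7 DAP and 10.2% at 6 DAP. The log2 ratio of 6 to 7 DAP, 1.11 over all kept cells, was 0.052 in cells of 1000 to 3000 UMIs. It was 1.71, 0.59, 0.34 and 0.22 in the 4 FL3 bins from the lowest up, 0.53, 1.45 and 1.34 in AL9 bins 1, 3 and 4, and 1.49 and 0.88 in BETL9 bins 2 and 3. By set, chosen after the data had been seen, it was 0.93 in ESR-marker cells, 0.80 with FL3 and BETL9, 0.75 with FL3 only and 1.38 with neither above the median AL9 rank. Within 1000 to 3000 UMIs it was 0.13 with FL3 only, 0.47 with BETL9 only, and 0.65 and 0.67 with neither, below and above that rank. The causes were not tested. Depth limits what can be seen of O11, since most positive cells hold 1 UMI.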
